A study of Mus musculus with 2 samples.

Results

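The regions described here are deep intronic DNase-hypersensitive peaks of the adult mouse cerebral cortex, that is, openings of the chromatin inside genes and far from any place where transcription is annotated to begin. A peak was taken as deep intronic when its midpoint lay inside a protein-coding gene body of GENCODE M21, in no annotated exon of any gene, and at least 10 kb from every annotated transcript start. It also had to be autosomal and to overlap, by at least 1 bp, a peak of the stricter deposited list of the other library. There were 2396 such peaks in replicate 1 and 2399 in replicate 2, together 4795 of the 80213 peaks of the stricter lists. Joined where they overlapped, they made 2384 sites, of which 2358 held member peaks of both libraries. Both libraries came from DNase-seq of left cerebral cortex tissue. The mice were males of the F1 hybrid strain B6CASTF1/J, postnatal and 8 to 10 months old, with no treatment or control group in the labels. The labels number them as biological replicates 1 and 2 but give both the same donor identifier, so the spread between them may leave out variation between animals. With 1 group of 2 libraries no test between conditions was possible, and each result is given per library or with its SD over both.

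DNase I cuts DNA where nucleosomes have been displaced, and such places commonly hold bound transcription factors. A bound protein shields its own contact bases, which leaves a short uncut stretch, a footprint, within the open region. Accessible DNA inside introns and away from starts often corresponds to enhancers, to insulator sites bound by the zinc-finger protein CTCF, or to alternative starts that an annotation lacks. Long introns are typical of genes for synaptic adhesion and signalling, so the brain has much intronic sequence of this kind. In bulk tissue, fewer open cells and less opening per cell cannot be told apart.

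Example sequences for the patterns below are shown first. They are the reference sequence around the centres of 7 sites on mm10, plus strand, written 5′ to 3′, and capitals mark bases that lay in a deposited footprint of both libraries. The Filip1l site is shown because it is among the strongest and its sequence recurs elsewhere in the genome. Igf1r holds the strongest site whose sequence had no near copy. Fam155a and Pebp4 show CTCF-like stretches inside shared footprints. Nfia shows a CACGTG E-box, and Wdtc1 and Gab2 show an E-box and an AT-rich MEF2 match next to a CTCF-like stretch. Nfia, Wdtc1 and Gab2 were chosen because their match lay in a footprint of both libraries, which most matches of these sequences did not. Whether such matches tend to lie near CTCF-like stretches was not tested.
Filip1l, chr16:57391301-57391420: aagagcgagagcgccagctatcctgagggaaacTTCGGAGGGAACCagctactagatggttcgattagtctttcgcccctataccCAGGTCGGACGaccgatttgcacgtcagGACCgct
Igf1r, chr7:68129156-68129305: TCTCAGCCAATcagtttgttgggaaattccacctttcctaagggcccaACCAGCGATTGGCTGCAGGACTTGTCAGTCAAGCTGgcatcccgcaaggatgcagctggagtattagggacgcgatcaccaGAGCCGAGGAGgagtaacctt
Fam155a, chr8:9233426-9233575: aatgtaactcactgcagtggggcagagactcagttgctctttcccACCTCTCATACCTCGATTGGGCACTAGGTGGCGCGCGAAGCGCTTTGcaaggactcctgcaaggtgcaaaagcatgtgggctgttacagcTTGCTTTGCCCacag
Pebp4, chr14:69861507-69861656: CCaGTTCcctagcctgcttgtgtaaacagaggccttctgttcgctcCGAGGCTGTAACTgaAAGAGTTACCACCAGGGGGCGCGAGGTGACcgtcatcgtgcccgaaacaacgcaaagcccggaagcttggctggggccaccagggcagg
Nfia, chr4:97868976-97869125: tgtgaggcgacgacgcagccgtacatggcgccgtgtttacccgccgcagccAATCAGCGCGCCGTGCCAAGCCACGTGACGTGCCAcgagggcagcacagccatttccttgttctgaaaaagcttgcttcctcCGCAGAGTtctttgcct
Wdtc1, chr4:133310053-133310202: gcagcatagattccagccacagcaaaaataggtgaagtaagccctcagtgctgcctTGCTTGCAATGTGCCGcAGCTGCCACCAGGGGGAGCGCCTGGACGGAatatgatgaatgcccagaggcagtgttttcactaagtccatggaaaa
Gab2, chr7:97297629-97297763: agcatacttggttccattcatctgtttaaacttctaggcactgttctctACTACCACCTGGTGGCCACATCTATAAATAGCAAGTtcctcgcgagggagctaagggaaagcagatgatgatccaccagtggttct
In Pebp4 the CTCF consensus matched bases 70 to 81 of the line, all 12 of them in capitals. In Fam155a a match with 1 mismatch covered bases 66 to 77. Wdtc1 held the E-box GCAGCTGC at bases 72 to 79, with a CTCF match of 1 mismatch at bases 79 to 90 that shared 1 base with it. Gab2 held the MEF2 match at bases 71 to 80 and CTCF matches with 1 mismatch on both strands between bases 53 and 65. In Nfia the CACGTG E-box took bases 73 to 78 and a partly protected NF-Y match, CCAATCAG, took bases 50 to 57.

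Facts of the libraries are brief. The stricter lists held 40705 peaks in replicate 1 and 39508 in replicate 2, and 30248 and 30106 autosomal peaks overlapped a peak of the other library. The total read depth behind these peaks is unknown. As a check of the tissue, 6 of 10 cortex markers had a peak of both libraries within 1000 bp of a start, against 1 of 8 hindbrain and midbrain markers and 2 of 8 liver and muscle markers. Tbr1 and Neurod6 were among the cortex markers with a peak, while Emx1, Slc17a7, Lhx2 and Cux2 had none in both libraries. Of 10 glial markers 2 had such a peak, Slc1a2 and Gfap, and the part of cell composition in the results was not tested.

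Deep intronic peaks were narrow and modest in strength, where strength is the signal value deposited with each peak. They made up 7.92% of the shared autosomal peaks in replicate 1 and 7.97% in replicate 2. Their median strength was 1.17 in replicate 1 and 1.04 in replicate 2 (mean 1.10 ± 0.0911 SD, n = 2 libraries). In the same libraries the medians were 1.32 and 1.19 for intronic peaks 1 to 10 kb from a start, 1.12 and 1.00 for intergenic peaks at least 10 kb from starts, and 1.95 and 1.79 for peaks within 1000 bp of a start. The gap to start peaks was several times the gap between libraries. The gap to intergenic peaks had the same direction in both libraries but was smaller than the gap between libraries. Strength was lower in replicate 2 than in replicate 1 in all 4 classes, so classes are compared within a library.

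**Figure D1:**
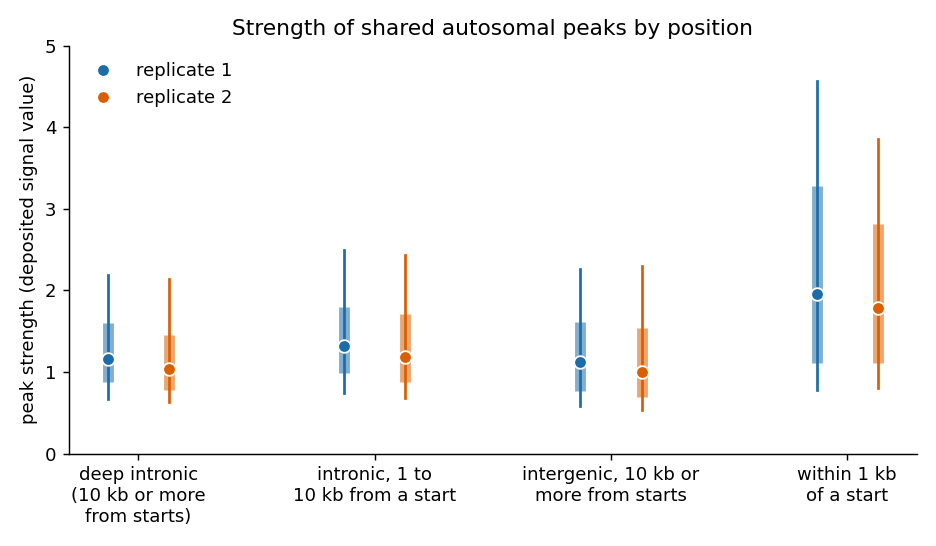
Strength of shared autosomal peaks (deposited signal value, linear axis) by class and library. Points are medians, thick bars the 25th to 75th percentiles and thin bars the 10th to 90th percentiles over peaks; deep intronic medians are 1.17 and 1.04, those within 1 kb of a start 1.95 and 1.79.

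Deep intronic peaks had a median width of 187 bp in replicate 1 and 180 bp in replicate 2, against 260 and 280 bp at starts. At a matched strength of 1 to 2 the widths were 200 and 199 bp for deep intronic peaks, against 272 and 300 bp at starts, so the narrower width was also present among peaks of like strength. It was shared with the other classes away from starts, at 198.5 and 199 bp for intronic peaks nearer to starts and 200 and 200 bp for intergenic peaks. Members just inside the distance bound resembled peaks just outside it. Intronic peaks 10 to 12 kb from a start had a median strength of 1.23 (267 peaks, replicate 1) and 1.11 (269 peaks, replicate 2), and those 8 to 10 kb away 1.32 (284 peaks) and 1.12 (282 peaks).

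The members were reproducible in strength, as their choice required them to be in position. Among 2315 pairs in which a member overlapped exactly 1 peak of the other library, log2 strength had Pearson r = 0.87 and strength Spearman rho = 0.85 across peaks. Peaks of the same 2 libraries are not independent replicates, and these values are a description. Strength lay within 2-fold in 2296 pairs (99.2%), and the median log2 ratio of replicate 2 over replicate 1 was -0.13. Before the overlap requirement there were 3786 deep intronic peaks in replicate 1 and 3132 in replicate 2, of which 63.3% and 76.6% were shared. The shares at starts were 85.2% and 81.4%. The peaks left out for lack of overlap were weaker, with median strengths of 0.758 (1390 peaks) and 0.648 (733 peaks). Of these, 70.0% and 70.4% overlapped a peak of the other library's broader list. The choice of shared peaks therefore removed the weaker deep intronic peaks.

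**Figure D2:**
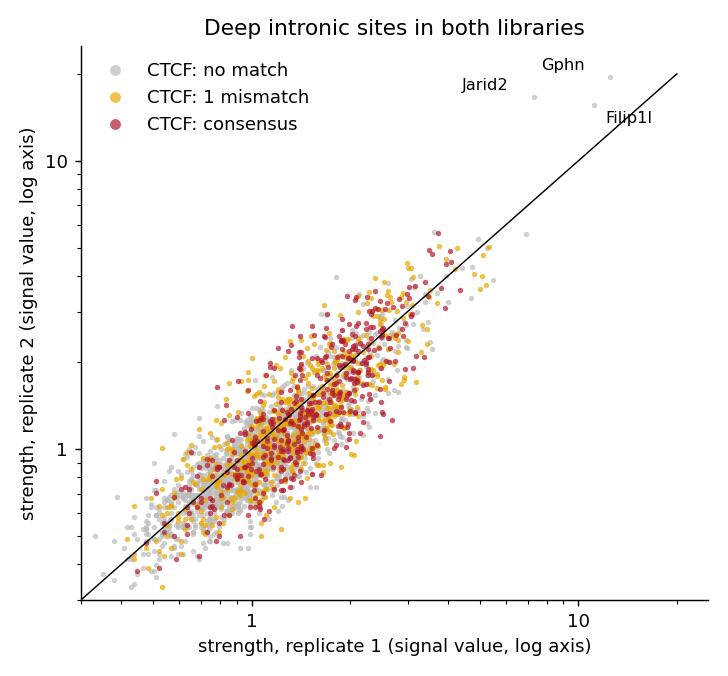
Strength of each deep intronic site in replicate 1 (horizontal) and replicate 2 (vertical), both as deposited signal values on log axes, with the line of equality. Colours give the CTCF consensus class of the site; Gphn and Filip1l lie above the other sites in both libraries, and Jarid2 clearly so in replicate 2 only (7.33 in replicate 1, where Igf1r has 6.89).

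The 3 strongest sites had sequence that recurs in the genome, so their strengths cannot be assigned to these places alone. The first lay in intron 2 of Gphn (chr12:78350861-78351120). Its strength was 12.5 in replicate 1 and 19.5 in replicate 2. The next lay in intron 3 of Jarid2 (chr13:44869561-44869720), with 7.33 and 16.6, and in intron 1 of Filip1l (chr16:57391301-57391420), with 11.2 and 15.6. Every other site had at most 6.89 in replicate 1 and 5.68 in replicate 2, so Jarid2 stood well above the rest in replicate 2 only. Stretches of at least 100 bp at 90% identity or more occurred at 5 other places on the assembled chromosomes for the Gphn site, at 8 for the Jarid2 site and at 13 for the Filip1l site. One of the Filip1l copies, 120 bp at 99.2% identity, lay 103 bp from the Jarid2 site. The printed Filip1l sequence resembles that of the large-subunit ribosomal RNA, whose genes are present in many copies. The sequences of the Gphn and Jarid2 sites, not printed here, resemble that RNA as well. None of the matching places of these 3 sites met an rRNA gene of GENCODE M21, so the resemblance rests on the letters alone. Whether reads of other copies contribute to these peaks was not tested. In a search of all 2384 sites in which repeat-masked bases started no match, 19 (0.797%) had another place of at least 100 bp, these 3 and 16 outside the 20 strongest. A search of the 20 strongest without that masking also found 4 other places for the Gm44511 site. Its strengths were 4.18 in replicate 1 and 4.22 in replicate 2. Under the stricter rule of a copy over at least 80% of the site, 16 sites (0.671%) had one and the Gphn site had none.

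The strongest sites without a near copy were spread over genes of different functions. The site in intron 2 of Igf1r (chr7:68129121-68129340), the receptor of insulin-like growth factor, had strengths of 6.89 in replicate 1 and 5.56 in replicate 2, with 5 footprints in each library. A second Igf1r site, at chr7:68130001-68130220, had 4.42 and 4.24. The site in Vps37c (chr19:10709441-10709660), an endosomal sorting gene, had 5.32 and 5.03. The Igf1r and Vps37c sites first named were among the 20 strongest in each library. The Aim2 site (chr1:173390181-173390440, 4.94 and 5.35), in the gene of a cytosolic DNA sensor, overlapped the tRNA gene n-TRtct5 annotated by RefSeq, so its label as intronic rests on an annotation without tRNA genes. One more of the 2384 sites, in Nfib, overlapped an annotated tRNA gene. Atoh8, a basic helix-loop-helix factor gene, had 5.11 and 4.70 at chr6:72216721-72216940, and Fam155a, which encodes a subunit of a sodium leak channel, had 4.26 and 4.98 at chr8:9233401-9233600. The larger strength of the 2 libraries was 1.24 times the smaller for Igf1r, 1.17 times for Fam155a and 1.06 times for Vps37c, against 2.26 times for Jarid2 and 1.56 times for Gphn.

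Member sites thinned out with distance from starts. Within the 484.619 Mb that met the position rule there were 4.92 sites per Mb. The density was 5.98 per Mb at 10 to 20 kb from the nearest start (978 sites), 5.17 at 20 to 50 kb (938 sites), 3.83 at 50 to 100 kb (336 sites), 2.64 at 100 to 200 kb (108 sites) and 2.17 beyond 200 kb (24 sites). Strength went the same way in both libraries. Its median in replicate 1 was 1.27 at 10 to 20 kb and 0.739 beyond 200 kb, and in replicate 2 it was 1.12 and 0.722 at the same distances. The median site lay 23.9 kb from the nearest start, against 28.6 kb for a regular grid over the eligible sequence, and the farthest lay 434 kb away. RefSeq placed starts nearer to some of them: 79 sites (3.31%) lay within 1000 bp of a RefSeq transcript start, against 0.993% of the grid. Those 79 sites had median strengths of 1.18 and 1.14, against 1.17 and 1.04 for the other sites.

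**Figure D3:**
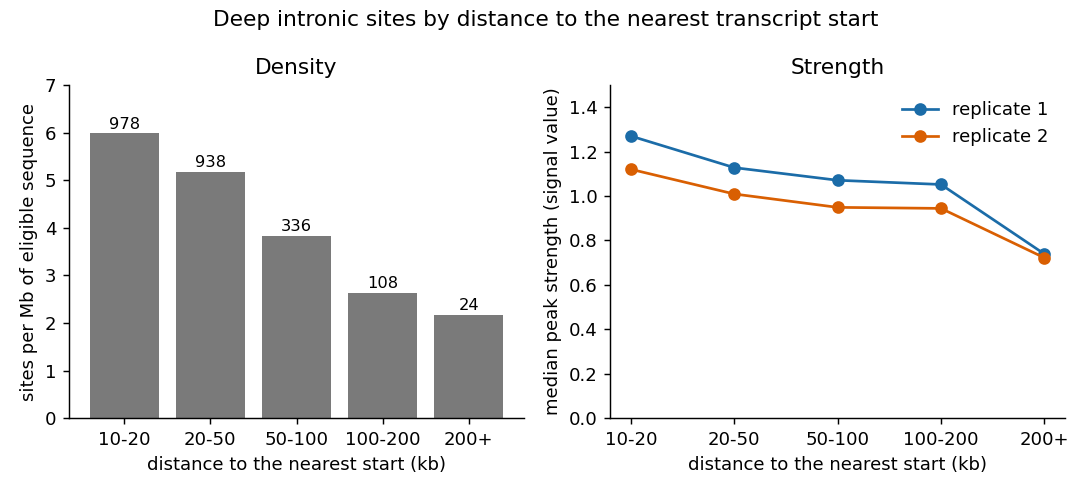
Left, sites per Mb of eligible sequence by distance to the nearest annotated start, with the number of sites above each bar. Right, median peak strength (deposited signal value) per library in the same bins; density goes down across the bins, with 5.98 per Mb at 10 to 20 kb and 2.17 per Mb beyond 200 kb.

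Within genes, the sites lay toward exons and toward the 3′ end. Of all sites 13.9% were within 500 bp of an exon, against 8.53% of the grid, and the median distance to the nearest exon was 5.27 kb against 9.48 kb. The last 20% of the host gene held 24.2% of the sites and 18.4% of the grid, and the first 20% held 10.4% of the sites and 15.2% of the grid. The first intron held 452 of 2329 sites that could be placed in an intron (19.4%), against 22.6% of the grid. These are shares over sites of both libraries; the share in the first intron was 19.6% in each library taken alone. Host introns were shorter than those of the grid, with a median of 30.3 kb over sites and 51.6 kb over the grid.

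Footprints covered a slightly larger share of the bases of deep intronic peaks than of start peaks. A footprint midpoint lay in 94.7% of the member peaks in replicate 1 and 91.9% in replicate 2 (mean 93.3 ± 1.97% SD, n = 2). The share was 88.6% and 89.6% at starts, 93.9% and 91.9% for intronic peaks nearer to starts and 93.0% and 91.6% for far intergenic peaks. Deep intronic peaks held 1.23 and 1.24 footprints per 100 bp, and start peaks 1.33 and 1.31. At a strength of 1 to 2 the order turned round, with 1.24 and 1.29 per 100 bp in deep intronic peaks and 1.06 and 1.10 at starts. Intronic peaks nearer to starts had 1.26 and 1.25 at that strength, and intergenic peaks far from starts 1.31 and 1.26. Footprints took 18.2% of the bases of deep intronic peaks in both libraries and 17.0% and 16.6% of those at starts. In intergenic peaks far from starts they took 18.2% and 17.6%, and in intronic peaks nearer to starts 19.0% and 18.8%. The shares of deep intronic and intergenic peaks were thus equal at this precision in replicate 1. A larger share than at starts was common to the classes away from starts and not particular to deep intronic peaks. Of the 6017 footprints in member sites of replicate 1, 58.4% overlapped a footprint of replicate 2, and 56.2% of the 6203 of replicate 2 overlapped one of replicate 1. The sites with the most footprints were the wide ones, in Btd, with 10 in each library over 1080 bp, in D430042O09Rik, with 8 and 13 over 820 bp, and in Slc2a3, a glucose transporter gene of neurons, with 8 in each over 680 bp. The Btd site was the 1 site whose centre, after joining, lay in an exon (144 bp inside), although the midpoints of its member peaks did not.

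The sequence of the sites was richer in GC than its surroundings but unlike that of promoters. Member peaks had a median GC content of 52.2% in replicate 1 and 52.5% in replicate 2, against 64.2% and 63.8% at starts. Windows of the same width moved 1000 bp to either side, which overlapped no peak of either list, had a median of 45.8% (4549 windows), against 52.0% over the 2384 sites. CpG dinucleotides were at 0.255 and 0.259 of the number expected from base composition in deep intronic peaks, 0.794 and 0.788 at starts, and 0.327 and 0.322 in intergenic peaks far from starts. Repeats were scarce in the sites, of which 1.22% were repeat-masked over more than 50% of their length, against 14.6% of the moved windows.

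Of 31 consensus sequences searched on both strands, CTCF had the largest ratio between sites and their surroundings among those found in at least 20 sites. It occurred in 458 of 2384 sites (19.2%, exact 95% interval 17.6 to 20.9%, counting error only) and in 2 of 4549 moved windows (0.0440%). With 1 mismatch allowed it occurred in 1066 sites (44.7%) and 85 windows (1.87%). In central windows of 200 bp, the share was 18.6% in deep intronic sites, 18.7% in intronic sites nearer to starts, 17.9% in intergenic sites far from starts and 2.27% at starts. The high share was therefore common to sites away from starts and not particular to introns. Matches sat near the middle of the site, at a median of 10 bp from its centre, and of the 458 matches 402 (87.8%) lay in a footprint of both libraries, while 9.83% of all site bases did. A match is a description of letters, and CTCF binding was not measured.

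The footprints over CTCF matches had a shape of their own. Footprints over the match had a median length of 29 bp in replicate 1 and 30 bp in replicate 2, against 10 bp in both for footprints in sites without the consensus. The first set was required to cover the match centre, which favours long footprints. The second held every footprint of its sites, those with 1 mismatch included, so the lengths are not like for like. At the match centre 95.4% of the 458 matches were in a footprint in replicate 1 and 89.7% in replicate 2. Read along the strand of the consensus, a shoulder lay upstream, with 47.8% and 46.1% at 18 bp before the centre, and at 35 bp on either side the shares were between 0.655% and 1.09%. The protected stretch was thus asymmetric, with few footprints just beyond it. Among the 450 matches in sites with a single host gene, 262 were on the strand opposite to the gene (58.2%, exact 95% interval 53.5 to 62.8%) and 188 on the same strand. The interval covers counting error over sites only. Sites of the same gene are not independent in this respect, and a strand preference was not tested.

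**Figure D4:**
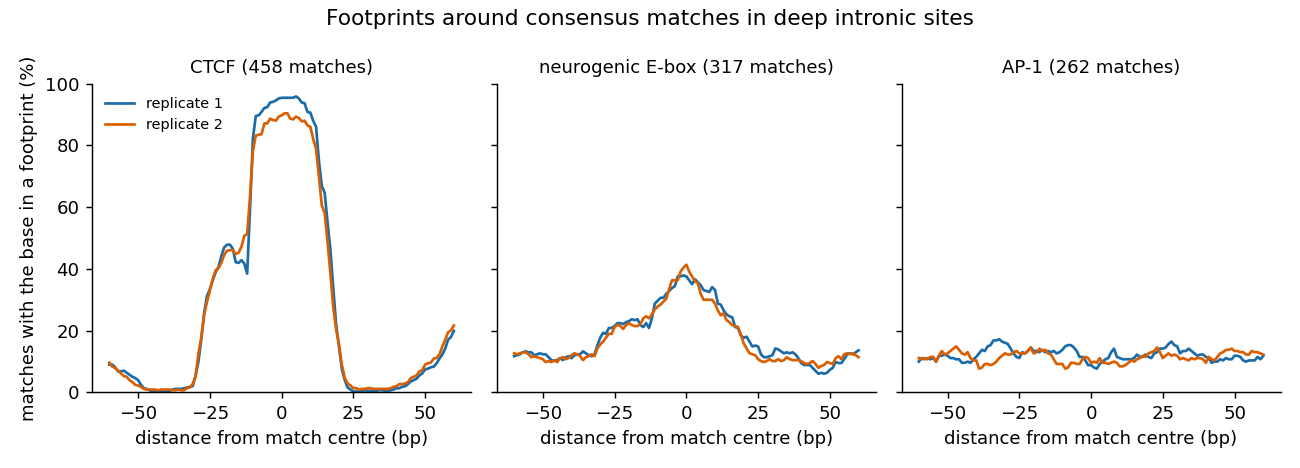
Share of consensus matches whose base at each distance from the match centre (bp, along the strand of the consensus) lay in a deposited footprint, per library, for CTCF, the neurogenic E-box and AP-1. The share peaks at 95.9% and 90.4% for CTCF and at 37.9% and 41.3% for the neurogenic E-box, and AP-1 matches stay near the level of their flanks.

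Sites with the CTCF consensus were stronger than those without. Their median strength was 1.44 in replicate 1 and 1.32 in replicate 2, against 1.30 and 1.19 for the 608 sites with 1 mismatch and 1.03 and 0.935 for the 1318 sites with neither. The share with the consensus was 35.7% in the strongest 10% of sites, ranked by the worse of their 2 library ranks, and 9.56% in the weakest 25%. Sites with the consensus lay a median of 2.83 kb from an exon, against 8.19 kb for sites with neither, and 21.3 kb from a start, against 25.6 kb. They held 2.54 and 2.49 footprints on average, against 2.52 and 2.62, so the difference in strength came without more footprints per site. Their median width was 200 bp, against 220 bp for sites with neither, so these counts do not compare footprints per base.

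Other consensus sequences pointed to smaller groups of sites. The neurogenic E-box CAGATGG, bound by NEUROD and NEUROG dimers in neurons, occurred in 317 sites (13.3%) against 5.25% of the moved windows. Of its 346 matches 24.9% lay in a footprint of both libraries, and at the centre of the first match of each site 37.5% and 41.3% were in a footprint, against a mean of 10.5% and 10.8% at 40 to 60 bp. In sites without any CTCF match it was present in 14.6%, against 5.88% of their moved windows. In central windows of 200 bp it was present in 12.2% of deep intronic sites, 8.88% of intronic sites nearer to starts, 11.5% of intergenic sites far from starts and 2.73% at starts. The E-box GCAGCTGC occurred in 56 sites (2.35%) against 0.594%, the CACGTG E-box in 125 sites (5.24%) against 3.06%, and the MEF2 consensus in 20 sites (0.839%) against 0.330%. Of the 58 GCAGCTGC matches 8 (13.8%) lay in a footprint of both libraries, and of the 131 CACGTG matches 23 (17.6%) did. The MEF2 intervals, 0.513 to 1.29% in sites and 0.185 to 0.543% in windows, overlapped, and 1 of its 20 matches (5%), the one printed for Gab2, lay in a footprint of both libraries.

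The AP-1 consensus TGANTCA, bound by FOS and JUN dimers, differed from CTCF and the E-boxes. It occurred in 262 sites (11.0%) against 6.79% of the moved windows, but 2.71% of its 295 matches lay in a footprint of both libraries. At its centre 8.78% and 9.54% of the first matches were in a footprint, no more than the 10.8% and 12.2% at 40 to 60 bp. Its share went the opposite way to CTCF with strength, with 3.36% in the strongest 10% of sites and 13.4% in the weakest 25%. The neurogenic E-box was also rarest in the strongest 10%, at 9.66%, with 12.4% in the weakest 25%. In sites without any CTCF match AP-1 was present in 15.4%, against 8.10% of their moved windows. The part of the CTCF sites in the change with strength was not tested. Several other consensus sequences were rarer in sites than in the moved windows: the homeobox core TAATTA in 3.02% against 5.80%, the GATA consensus AGATAAG in 1.51% against 2.97% and the ROR consensus TAGGTCA in 1.43% against 2.15%. The higher GC content of the sites moves with these differences. Its part in them, and in the excess of the sequences that were more frequent in sites, was not tested. The other consensus sequences searched were YY1 as AAGATGGCG, ETS as ACCGGAAGT, CRE as TGACGTCA, KLF/SP as GGGGCGGGG, EGR as GCGTGGGCG, TEAD as ACATTCCA, NF-Y as CCAATCAG, the D-box as TTATGTAA, PU.1 as GAGGAAGT, FOX as TGTTTAC, the POU octamer as ATGCAAAT, SOX as ACAATGG, HNF4 as CAAAGTCCA, the T-box as AGGTGTGA, NR4A as AAAGGTCA and C/EBP as TTGCGCAA. Those of the glucocorticoid receptor, NRF1, SRF, nuclear factor I, RFX and REST are given by name. None of these 22 matched more than 67 sites, with shares of at most 2.81% of sites, for FOX, and 3.36% of moved windows, for SOX, and REST matched no site (exact 95% upper bound 0.155%) and no window.

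The sites were spread thinly over many genes. Of 8392 protein-coding genes with eligible sequence, 1573 (18.7%) held a member peak in both libraries. Of the 1590 genes with any site, 1116 held exactly 1, and 35 held 5 or more. Genes with more eligible sequence were hit more often: 3.64% of genes with under 10 kb of it had a member peak in both libraries and 67.9% of the 330 genes with at least 300 kb. Density went the other way, at 8.98 sites per Mb in the smallest of these groups and 3.08 in the largest. In the largest group 106 of 330 genes had no site. Counts per gene are therefore read beside the eligible sequence of the gene.

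**Figure D5:**
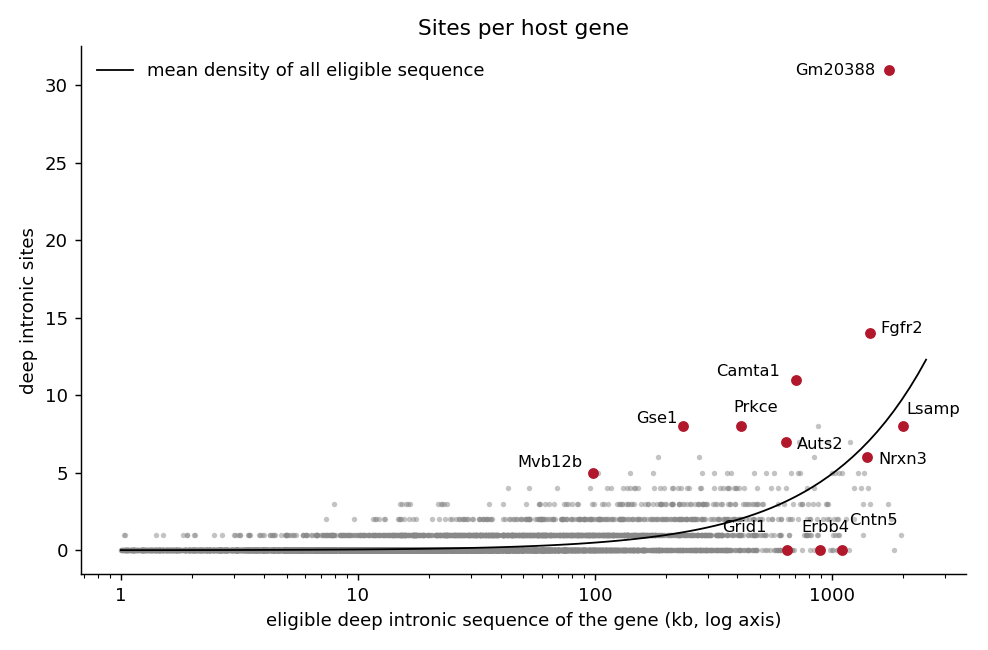
Number of deep intronic sites in each host gene against its eligible deep intronic sequence (kb, log axis), for genes with at least 1 kb. The line is the mean density of 4.92 sites per Mb; named genes are in red, with Gse1 and Mvb12b above the line and Cntn5, Erbb4 and Grid1 at 0.

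The genes with the most sites were mostly long. The gene model Gm20388, annotated over 4434.88 kb of chromosome 8, came first with 31 sites, but it spans other genes, and the 8 sites of Gse1 were all counted in both. Fgfr2, a fibroblast growth factor receptor, held 14 sites over an annotated body of 2960.9 kb. Their strengths were 0.739 to 5.22 in replicate 1 and 0.565 to 3.72 in replicate 2. They ran from chr7:130215381 to chr7:133088821, with the strongest at chr7:132551841-132552060. Their assignment to the receptor gene rests on that long annotated body alone. Camta1, a calmodulin-binding transcription activator, held 11 sites at 15.6 per Mb, the strongest with 2.26 and 3.38. Gse1 held its 8 sites in 235.9 kb of eligible sequence, 33.9 per Mb, with median strengths of 1.63 and 1.58. Prkce, which encodes protein kinase C epsilon, held 8 at 19.4 per Mb, and the adhesion genes Cdh13 and Lsamp held 8 each at 9.13 and 4.02 per Mb. Lsamp thus had as many sites as Gse1 in over 8 times the sequence.

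Genes with fewer but denser sites followed. Mvb12b, a gene of the endosomal sorting complex, had 5 sites in 98.186 kb (50.9 per Mb), of which 2 held the CTCF consensus and 4 a match with at most 1 mismatch. Sez6l, a neuronal membrane protein gene, had 5 in 103.498 kb (48.3 per Mb), with strengths up to 3.03 in replicate 1 and 3.35 in replicate 2. Maml3, a coactivator of Notch signalling, had 6 (32.4 per Mb) and none of them held a CTCF match even with 1 mismatch. Pknox2, a homeobox gene, had 5 at 35.5 per Mb and Arhgef3, a guanine nucleotide exchange factor gene, 5 at 28.4 per Mb. The remaining genes with the most sites were Auts2, Trpm3, the gene model Gm37240 and Pde4d with 7 each, Pde11a, Ctnna2 and Nrxn3 with 6 each, and Sorcs2 with 5. Pde4d and Pde11a encode cyclic nucleotide phosphodiesterases. The strongest site of Pde4d had 3.70 and 3.48, and no site of Pde11a passed 1.35 and 1.56.

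Neuronal and synaptic gene lists were hit more often than all genes, and by smaller margins more often than genes in the same size groups of eligible sequence. The largest size group was open from 300 kb, so the match within it was coarse. The adhesion genes, for example, had a median of 805.63 kb of eligible sequence. Of 35 genes for synaptic adhesion and cell recognition with eligible sequence, 24 (68.6%) held a member peak in both libraries, against 65.2% for genes in the same size groups and 18.7% for all genes. The same shares were 16 of 28 (57.1% against 53.3%) for glutamate and GABA receptors, 17 of 29 (58.6% against 53.4%) for axon guidance and 22 of 35 (62.9% against 54.3%) for second messenger and kinase signalling. They were 23 of 37 (62.2% against 48.6%) for voltage-gated and calcium-release channels, 13 of 23 (56.5% against 41.5%) for postsynaptic scaffolds and kinases and 20 of 39 (51.3% against 42.8%) for transcription regulators of neurons. Lists of other cell types were at 9 of 28 (32.1% against 36.0%) for the astrocyte and oligodendrocyte lineage, 12 of 34 (35.3% against 37.0%) for microglia and vascular cells and 12 of 35 (34.3% against 29.3%) for muscle, liver and other organs. Most of the excess over all genes was thus also present in genes of the same size groups, and the channels and the scaffolds had the widest gaps to them.

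Per Mb of eligible sequence the order depended on whether sites were pooled or read gene by gene. Pooled over each list, the density was 6.02 sites per Mb over the neuronal transcription regulators, 5.75 over the channels, 5.45 over the scaffolds and 5.08 over second messenger genes, against 4.94 over all genes. It was 2.68 over the adhesion genes, 3.25 over axon guidance genes and 3.39 over receptors. The median over the genes of a list was 1.28 for the transcription regulators, 3.25 for the channels, 3.22 for the scaffolds and 2.93 for second messenger genes. It was 2.01 for the adhesion genes, 2.13 for axon guidance genes and 1.85 for receptors. The transcription regulators, highest when pooled, were thus the lowest of the 7 neuronal lists by this median, and Camta1 held 11 of their 53 sites. The 3 non-neuronal lists lay between 3.22 and 3.72 when pooled and had medians of 0. Fgfr2, counted over its long annotated body, held 14 of the 25 sites of the astrocyte and oligodendrocyte list. The pooled density of that list was 3.36 with Fgfr2 and 1.84 without it. Adhesion genes held the most sites of the lists, 74. Their sites had a median strength of 1.09 and 0.963, those of the channels 1.34 and 1.19, and all sites 1.17 and 1.04.

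Single genes of the lists ranged widely. Grik4, a kainate receptor subunit gene, held 5 sites with strengths of 1.28 to 2.19 in replicate 1 and 0.963 to 3.19 in replicate 2. The scaffold genes Dlgap1 and Magi1 held 5 each, and the Dlgap1 sites reached 3.47 and 2.77. Kcnip1, an auxiliary subunit gene of A-type potassium channels, held 4 sites, 3 of them with the CTCF consensus, and Cacna1d, a calcium channel gene, held 4. The guidance ligand genes Slit1 and Slit3 held 4 and 3. Gpc5 held 3 in 1359.02 kb. Sorl1, Elmo1, Ldb3 and Nebl, from the microglial, vascular and muscle lists, held 2 each, and those of Ldb3, a gene of the muscle Z-disc, had 1.06 and 1.78 in replicate 1 and 1.30 and 1.54 in replicate 2.

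Other long genes of the same lists held no site. Cntn5, a neuronal adhesion gene, had none in 1105.76 kb of eligible sequence, Erbb4, the neuregulin receptor gene, none in 888.747 kb, and Grid1, a glutamate receptor gene of the delta class, none in 648.892 kb. Dock2 of immune cells, Kcnh7 of potassium channels, Foxp2, Rgs7, Sema3a and Rp1 had none in 344.033 to 466.511 kb. Camk4, which neurons express, had none in 219.647 kb. Absence of a site means only that the stricter lists held no shared deep intronic peak there, at a depth that is unknown.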

How the data were processed

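DNase-seq of 2 libraries of 1 group was analysed from the deposited files on mm10. Per the notes deposited with the files, peaks were called on each library alone. Each deposited peak carries a signal value, here called strength, that the authors derived from the alignments of its library. The peak caller, the aligner and the scaling of that value were not given in the sources used here. The authors also deposited FDR values (q-values) of the cut rate for short intervals, and footprint intervals whose constant score column was not used. The smallest value of any interval inside each peak was read from the deposited p-value column, so whether it is an FDR or a p-value is not settled here. Its median on the −log10 scale was 6.92 in replicate 1 and 6.09 in replicate 2 for deep intronic peaks, and 12.4 and 11.6 at starts. The lowest values for deep intronic peaks were 3.03 and 3.02.

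Members, gene lists and consensus sequences were chosen with earlier results of these data known. Peaks were placed by midpoint with GENCODE M21, and sequence came from GRCm38.p6 (pysam 0.24.0, numpy 2.4.6). Overlapping members of both libraries were joined into sites. The grid had a point every 500 bp of eligible sequence. Moved windows were 1000 bp from each site and free of any peak. Near copies were sought with blastn 2.17.0 on assembled chromosomes (90% identity). Named genes were the 20 with the most sites, and per list the 2 with the most sites and the 1 with the most eligible sequence without a site. Named sites were the 10 strongest by the worse rank, the 3 with the most footprints and the strongest with a footprinted match of each of 6 consensus sequences; the second Igf1r site was named after its values were seen. Some genes and sites under this rule are not reported here. All 36 checks of the functions on simulated data were recovered.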

Additional observations from a re-analysis of the deposited data

How the results depend on the processing

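Of 82 recomputed values, 41 stayed within the spread between libraries, or within 1.5 times for the number of sites, and 41 did not. That spread is small for the share in the first intron and for the density, since shared peaks are nearly the same in both libraries. Small shifts therefore count as moves there. For strength, footprint share and GC content, 1 library alone cannot lie farther from the mean of both than their SD. Those values were bound to stay, as were the site counts of 1 library, since members are shared. The tally is therefore not a measure of stability. With a distance of at least 20 kb, there were 1406 sites, a median GC content of 52.0%, the CTCF consensus in 17.6%, the first intron in 19.7% and 4.38 sites per Mb. At 5 kb these were 20.2% for CTCF, 20.3% for the first intron and 5.10 per Mb. With starts of protein-coding genes only, the first intron held 20.4% and the density was 4.99 per Mb. The broader peak list gave 5613 sites, a median strength of 0.740, a footprint in 81.7%, GC of 51.5%, CTCF in 11.7%, the first intron in 22.0% and 11.6 per Mb. The strongest 50% of the stricter list gave 839 sites, 1.77, 99.6%, 53.0%, 30.3%, 19.2% and 1.73 per Mb for the same quantities. A reciprocal overlap of 50% gave a footprint in 96.6%, CTCF in 21.8%, the first intron in 18.3% and 3.96 per Mb. Without Gm and Rik models the first intron held 18.7% and the density was 4.89 per Mb. Joining within 200 bp gave 4.87 per Mb, 1 mismatch gave CTCF in 44.7%, and counting the first intron of any protein-coding transcript gave 25.6%. With the shared peaks of 1 library taken alone, CTCF ranged from 18.1% to 19.0%, the first intron from 19.58% to 19.62% and the density from 4.919 to 4.930 per Mb. The other library still decided which peaks were shared, so neither library was truly left out. After seeing the data, sites with another copy were left out, which gave 19.5% in the first intron and 4.89 per Mb, and sites near a RefSeq start, which gave 19.0% and 4.76 per Mb. Apart from settings that change how many peaks are admitted or what counts as a match, the cause of these moves was not tested. No paired analysis was possible because there was only 1 group. The read depth is unknown, so weak openings may be missed.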
